A study of Mus musculus with 23 samples.

Results

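The activin, follistatin and TGF-beta genes described here are 10 of the 54347 genes in the count table. They are the activin subunit genes Inhba and Inhbb, the activin antagonist gene Fst (follistatin), the ligand genes Tgfb1, Tgfb2 and Tgfb3, the receptor genes Tgfbr1, Tgfbr2 and Tgfbr3, and Tgfbi, which encodes a secreted matrix protein. They were chosen by name, through Ensembl gene identifiers matched to symbols without their version, and all 10 were found. Measured values played no part in the rule, but the set was proposed with earlier results of these data known.

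RNA was sequenced from cells of the labial cervical loop, the epithelial fold and adjoining tissue at the base of the lower incisor, taken from mice at postnatal day 2. All mice carried the Sox2-GFP reporter, in which the endogenous promoter of Sox2 drives green fluorescent protein, and cells were sorted on that fluorescence. Batch A has 6 Sox2-negative and 6 Sox2-positive libraries, and batch B has 4 Sox2-negative and 7 Sox2-positive libraries, 23 in all. Each batch is its own day of work and its own mice, so day and mice cannot be told apart. The labels name the Sox2-positive cells dental epithelial stem cells, and they leave unsaid whether the libraries within a batch are from separate mice or are splits of a single sort. P-values therefore measure the spread between libraries, which may be technical. The reporter marks cells with an active Sox2 promoter, whatever their lineage, and the Sox2-negative gate holds every other cell type of the region.

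Activins are dimers of the subunits that Inhba and Inhbb encode, and follistatin binds them and blocks their access to receptors. The TGF-beta ligands bind the type II receptor Tgfbr2, which recruits and phosphorylates the type I receptor Tgfbr1, which in turn phosphorylates Smad2 and Smad3. Tgfbr3, or betaglycan, is a coreceptor that presents TGF-beta ligands, the Tgfb2 product above all, and it also binds inhibin. In the mouse incisor, activin made by mesenchyme and follistatin made by epithelium are known regulators of epithelial stem cell proliferation and of the asymmetric formation of enamel.

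Inhba and Tgfb2 are the ligand genes of the set that encode different branches of the family and that moved in opposite directions in both batches, and for that reason the 250 bases before their starts are shown, 5′ to 3′ on the gene's strand, from the RefSeq promoter table (GRCm38.p6). Of the 10 genes, 7 were in that table, and Fst, Tgfb3 and Tgfbr3 were not matched. The window of Inhba is chr13:16011601-16011850 on the plus strand, and that of Tgfb2 is chr1:186705990-186706239 on the minus strand. Capitals mark matches, on either strand, to the motifs searched.
Inhba: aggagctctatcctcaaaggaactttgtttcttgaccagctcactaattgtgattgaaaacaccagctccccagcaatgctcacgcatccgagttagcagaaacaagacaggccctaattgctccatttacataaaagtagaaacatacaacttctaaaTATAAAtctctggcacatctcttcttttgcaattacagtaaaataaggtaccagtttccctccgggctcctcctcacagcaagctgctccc
Tgfb2: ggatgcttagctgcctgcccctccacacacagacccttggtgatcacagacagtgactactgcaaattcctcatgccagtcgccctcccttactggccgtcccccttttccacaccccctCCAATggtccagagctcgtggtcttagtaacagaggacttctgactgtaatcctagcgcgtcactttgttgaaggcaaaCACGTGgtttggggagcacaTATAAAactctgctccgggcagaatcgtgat
The motifs searched were the TATA box (TATAAA), the GC box (GGGCGG), the CCAAT box (CCAAT), the Smad palindrome (GTCTAGAC), the CAGA box of Smad-bound promoters (AGCCAGACA), the AP-1 site (TGANTCA), the CRE (TGACGTCA) and the E-box (CACGTG). No match overlapped another. The Inhba window holds a TATA box at -91 to -86 from the start, and its base composition is 43.2% G or C. The Tgfb2 window holds a CCAAT box at -130 to -126, an E-box at -51 to -46 and a TATA box at -31 to -26, with 53.6% G or C. Among all 32851 windows of this length in the table, 12.4% hold the TATA box, 33.8% the CCAAT box and 6.02% the E-box. The median content of G and C was 52.4%. The other motifs occur in 32.7% of windows for the GC box, 6.75% for the AP-1 site, 1.55% for the CRE, 0.301% for the CAGA box and 0.167% for the Smad palindrome, and neither printed window holds them. A match is a run of letters and not a measured binding site.

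Total estimated counts per library, in megacounts (M), ran from 2.31 to 9.54 M with a median of 4.83 M. Within batch A they covered 3.71 to 4.83 M on the Sox2-negative and 3.93 to 5.94 M on the Sox2-positive side, and within batch B 6.40 to 9.54 M and 2.31 to 7.11 M. Levels are given as CPM, counts set to a common library total after TMM scaling, and 3 counts equal 0.357 to 1.3 CPM, a limit that covers counting error only. Sox2 averaged 7.27 ± 4.41 CPM (SD, n = 6) and 16.4 ± 2.91 CPM (n = 7) in the Sox2-positive groups of batches A and B, and 5 of 6 and 3 of 4 Sox2-negative libraries were at 0. Summed over 10 epithelial marker genes, the Sox2-positive groups lay at 5145 to 5584 CPM in batch A and 5655 to 8382 CPM in batch B, against 218 to 348 and 486 to 558 CPM in the Sox2-negative groups. The 10 mesenchymal markers summed to 12062 to 13574 and 11251 to 14341 CPM in the Sox2-negative groups, and to 1232 to 1788 and 608 to 697 CPM in the Sox2-positive groups, where Twist1 was at 0 in every library. Endothelial, leukocyte, erythroid and odontoblast markers were also concentrated in the Sox2-negative groups. Each Sox2-negative value below is thus a value of a mixture, and in bulk samples fewer cells of a type and less RNA per cell cannot be told apart.

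Sox2-positive cells had more Fst and Tgfb2 RNA and less Inhba, Tgfb3, Tgfbr2 and Tgfbi RNA than Sox2-negative cells in both batches. Tgfbr3 was higher in Sox2-positive cells of batch A and lower in those of batch B. In batch A, 3 of the 9 genes tested were higher and 5 lower, against 43.4% of 14296 tested genes called in either direction (19.3% higher, 24.2% lower). In batch B, 2 of 10 were higher and 5 lower, against 54.7% of 15765 tested genes (27.1% higher, 27.6% lower). A gene was called at a Benjamini-Hochberg adjusted p under 0.05 in edgeR's quasi-likelihood test. Calls were thus common over the whole table, and the counts alone do not set the 10 genes apart. Libraries of the populations did not overlap for 5 of the 10 genes in batch A and 7 in batch B, against 25.2% and 36.4% of 17190 genes. The median log2 difference, Sox2-positive minus Sox2-negative, was -0.91 over the 9 genes in batch A, where all tested genes had a median of -0.04, and -0.46 over the 10 in batch B, where all had 0.01.

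**Figure D1:**
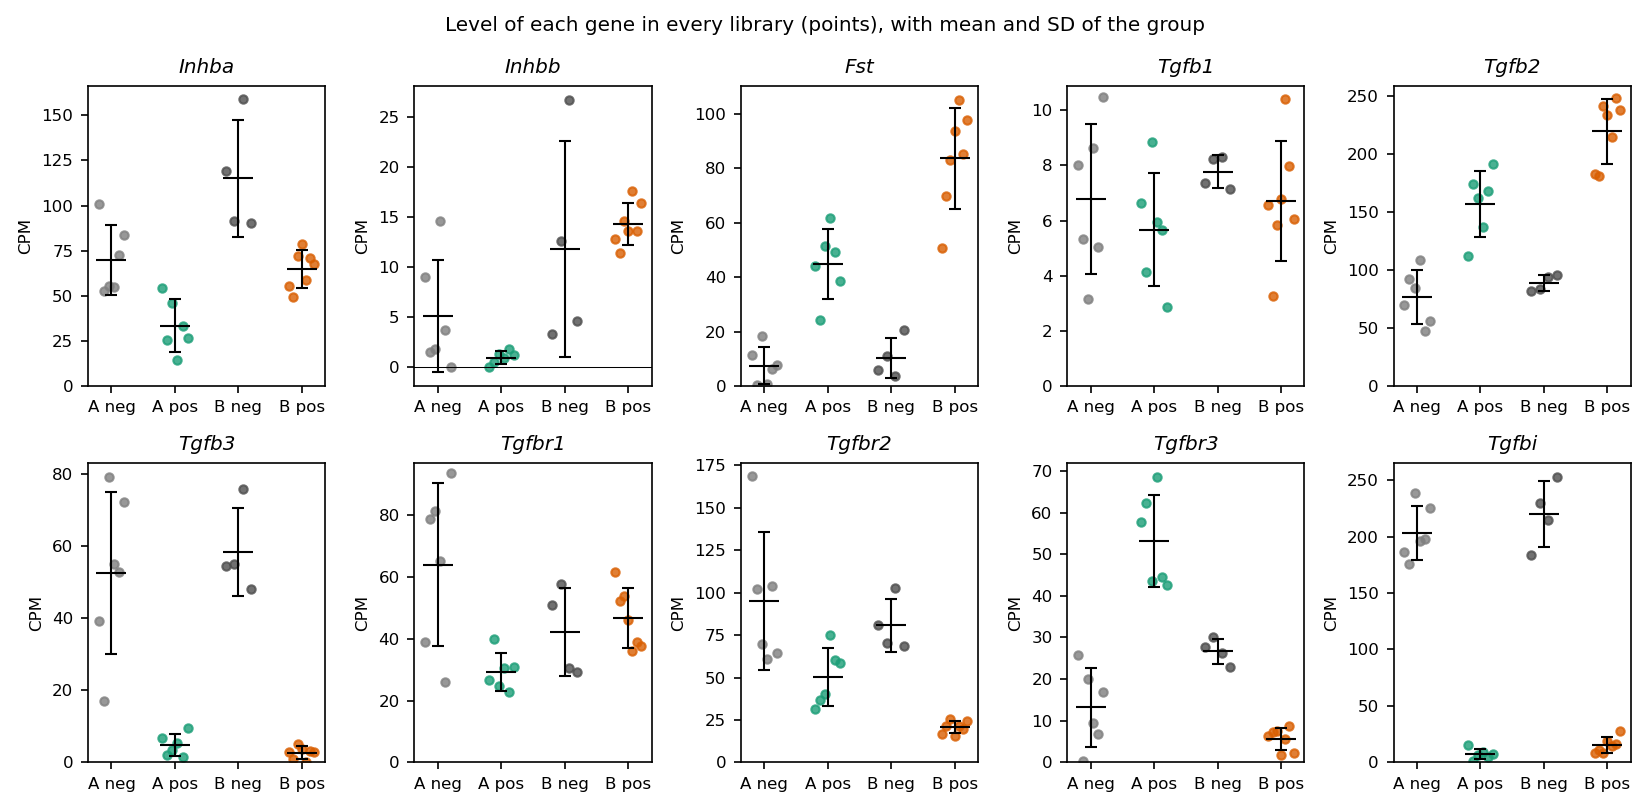
Level of each of the 10 genes in every library, in CPM on a linear axis (points), with the mean and SD of each group (horizontal and vertical lines), for batch A and batch B, Sox2-negative (neg) and Sox2-positive (pos). Tgfbi, Tgfb3, Tgfb2 and Fst separate the populations in both batches, and Tgfbr3 is highest in the 6 Sox2-positive libraries of batch A, at 42.7 to 68.6 CPM.

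The TGF-beta ligand genes split by population. Tgfb2 was 2.07-fold and 2.6-fold higher in Sox2-positive cells of batches A and B, Tgfb3 was 10.9-fold and 19.9-fold lower there, and Tgfb1 was not called in either batch.

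Tgfb2 lies on chromosome 1 at 186622792 to 186705989, minus strand (GRCm38), and its promoter window is printed above. In batch A its level ran from 47.7 to 109 CPM with a median of 77.1 in Sox2-negative libraries, and from 112 to 192 CPM with a median of 165 in Sox2-positive libraries. Batch B gave 4 Sox2-negative libraries at 81.9, 84, 93.9 and 96 CPM, and 7 Sox2-positive libraries at 181 to 249 CPM with a median of 234. Every Sox2-positive library was above every Sox2-negative library of its batch, although in batch A the gap between 109 and 112 CPM was small. The log2 difference was 1.05 (SE 0.20, adjusted p 0.000516, edgeR) in batch A and 1.38 (SE 0.13, adjusted p 3.07e-07) in batch B. Groups without any overlap, with the Sox2-positive side higher, occurred for 10.9% of 17190 genes in batch A and 16.2% in batch B.

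Tgfb3, on chromosome 12 at 86056745 to 86079041, minus strand, had the opposite pattern. Sox2-negative libraries of batch A covered 17.1 to 79.1 CPM with a median of 53.8, and Sox2-positive libraries 1.61 to 9.4 CPM with a median of 4.51. In batch B the Sox2-negative libraries were at 54.4, 54.9, 75.8 and 48.1 CPM, and the Sox2-positive libraries at 0 to 5.22 CPM with a median of 3.02, with 1 library at 0. No Sox2-positive library reached the lowest Sox2-negative library of its batch. On the log2 scale the edgeR differences were -3.45 (SE 0.48, adjusted p 2.7e-05) and -4.31 (SE 0.44, adjusted p 5.25e-07). Such separation with the Sox2-positive side lower occurred for 14.3% of genes in batch A and 20.3% in batch B.

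Tgfb1, on chromosome 7 at 25687002 to 25705077, plus strand, averaged between 5.67 ± 2.06 CPM (SD, n = 6, batch A Sox2-positive) and 7.77 ± 0.603 CPM (SD, n = 4, batch B Sox2-negative). Its libraries overlapped between populations in both batches. The log2 differences were -0.25 (SE 0.49, adjusted p 0.709, edgeR) in batch A and -0.15 (SE 0.37, adjusted p 0.747) in batch B. Errors of this size leave small differences unresolved.

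Levels of different genes were compared after division by the length of the longest coding transcript, as CPM per kilobase. On that scale Tgfb2 made up 45.5 ± 14.7% (SD, n = 6) of the summed Tgfb1, Tgfb2 and Tgfb3 levels in batch A Sox2-negative libraries and 88 ± 4.38% (n = 6) in batch A Sox2-positive libraries. The shares in batch B were 45.8 ± 4.39% (n = 4) and 91.8 ± 1.82% (n = 7). Tgfb3 supplied 45 ± 15% and 44.8 ± 4.53% in the Sox2-negative groups, and 4.16 ± 2.59% and 1.65 ± 1% in the Sox2-positive groups. The Sox2-negative groups thus held Tgfb2 and Tgfb3 at like levels per kilobase, and the Sox2-positive groups held mostly Tgfb2. Tgfb1 averaged 9.49%, 7.79%, 9.39% and 6.53% in batch A Sox2-negative, batch A Sox2-positive, batch B Sox2-negative and batch B Sox2-positive libraries.

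**Figure D2:**
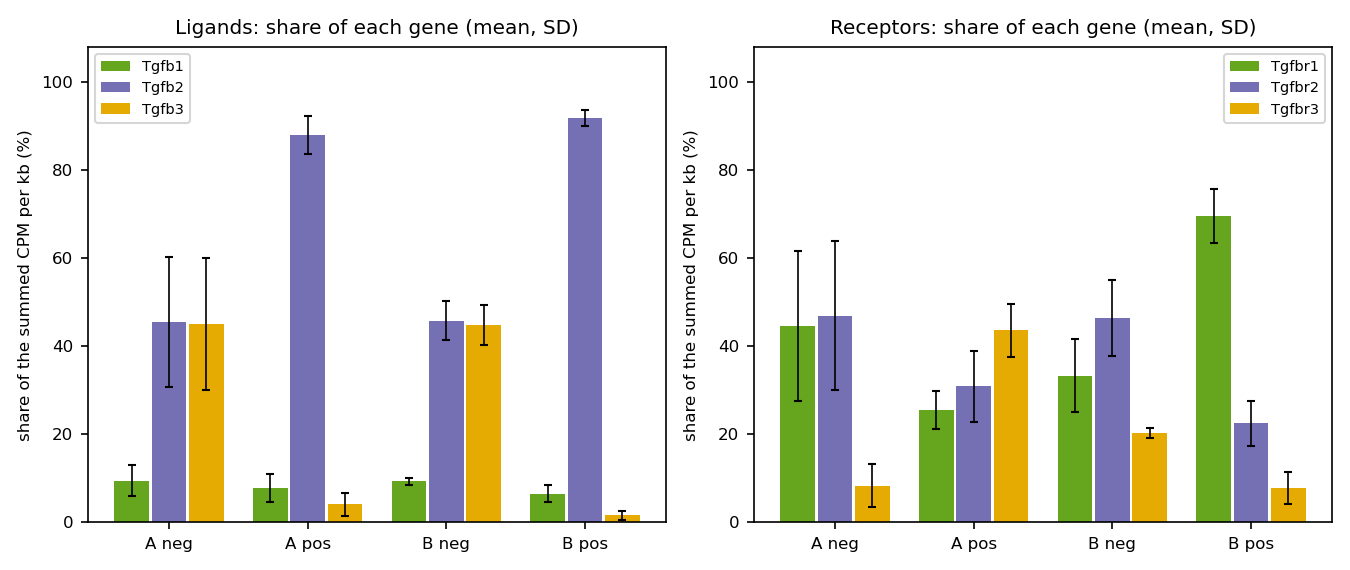
Shares, in percent, of the summed level per kilobase for the ligand genes Tgfb1, Tgfb2 and Tgfb3 and for the receptor genes Tgfbr1, Tgfbr2 and Tgfbr3, as group means with SD for batch A and batch B, Sox2-negative (neg) and Sox2-positive (pos). Tgfb2 takes 88% and 91.8% of the ligand sum in the Sox2-positive groups, and Tgfbr3 takes 43.6% and 7.86% of the receptor sum in the Sox2-positive groups of batches A and B.

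Among the activin genes, Inhba was lower in Sox2-positive cells, and its antagonist Fst was higher, in both batches. Inhba encodes the subunit of activin A and lies on chromosome 13 at 16011851 to 16031621, plus strand, next to the window printed above. Its level in batch A was 52.6 to 101 CPM, median 64, in Sox2-negative libraries and 14.2 to 54.5 CPM, median 30, in Sox2-positive libraries. Batch B Sox2-negative libraries had 119, 91.5, 159 and 90.4 CPM, and Sox2-positive libraries had 49.2 to 78.5 CPM with a median of 67.4. The populations did not overlap in batch B, and in batch A 5 of 6 Sox2-positive libraries lay below every Sox2-negative library. Differences were -1.06 (SE 0.30, adjusted p 0.00939, edgeR) in batch A and -0.76 (SE 0.18, adjusted p 0.00187) in batch B on the log2 scale. Inhba RNA was therefore reduced about 2.09-fold and 1.7-fold, and it was not absent from Sox2-positive cells.

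Inhbb, the gene of the other beta subunit, lies on chromosome 1 at 119415465 to 119422248, minus strand. In batch A it ran from 0 to 14.6 CPM with a median of 2.81 in Sox2-negative libraries and from 0 to 1.81 CPM with a median of 1.11 in Sox2-positive libraries. It did not pass the count filter there. The means differed by -4.15 CPM, Sox2-positive minus Sox2-negative (exact permutation test, two-sided p 0.0693, n = 6 and 6). Settings that kept Inhbb in the batch A test gave log2 differences of -2.35 to -2.27. It was called lower by DESeq2 (adjusted p 0.0352) and in the edgeR model of the 4 group means (0.0122), and not by edgeR with no filter beyond 1 count (0.119) or a filter at a mean of 10 counts (0.0761). In batch B the Sox2-negative libraries were at 3.33, 12.6, 26.7 and 4.59 CPM and the Sox2-positive libraries at 11.4 to 17.6 CPM with a median of 13.6. The Sox2-positive libraries were close together and lay inside the wide range of the Sox2-negative ones. The log2 difference in batch B was 0.33 (SE 0.45, adjusted p 0.55, edgeR). Without replicate 3 of batch B Sox2-negative, the library at 26.7 CPM, it was 1.14 with an adjusted p of 0.0246.

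Fst lies on chromosome 13 at 114452290 to 114458951, minus strand. Sox2-negative libraries of batch A covered 0.214 to 18.2 CPM with a median of 6.91, and Sox2-positive libraries 24.4 to 61.9 CPM with a median of 46.6. Sox2-negative libraries of batch B had 5.71, 11.1, 3.75 and 20.4 CPM, and Sox2-positive libraries 50.7 to 105 CPM with a median of 85.1. All 13 Sox2-positive libraries were above the Sox2-negative libraries of their batch. The log2 differences were 2.62 (SE 0.67, adjusted p 0.00471, edgeR) in batch A and 3.11 (SE 0.37, adjusted p 3.83e-06) in batch B. With limma-voom and sample quality weights the batch A value was larger, at 3.60 (adjusted p 0.00143).

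Set against the activin subunits per kilobase, Fst changed sides between the populations. The level of Fst per kilobase divided by that of Inhba plus Inhbb had a median of 0.192 in batch A Sox2-negative libraries, with a range of 0.00879 to 0.706. In batch A Sox2-positive libraries the median was 2.73, with a range of 1.82 to 8.92. Batch B gave medians of 0.165 (0.0425 to 0.473) and 2.14 (1.53 to 2.79). Activin subunit RNA exceeded follistatin RNA per kilobase in every Sox2-negative library, and follistatin RNA exceeded it per kilobase in every Sox2-positive library. The Sox2-positive order depends on the lengths used, 2.83 kb for Fst and 6.39 kb for Inhba. In undivided CPM, Fst was below Inhba in Sox2-positive replicates 1 and 2 of batch A (44.1 against 54.5 and 24.4 against 25.5). The same held in Sox2-positive replicate 1 of batch B (50.7 against 55.6), and Fst was above Inhba in the other Sox2-positive libraries. This ratio compares RNA levels and does not measure protein. Its parts are the genes tested above, so it adds no separate test.

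**Figure D3:**
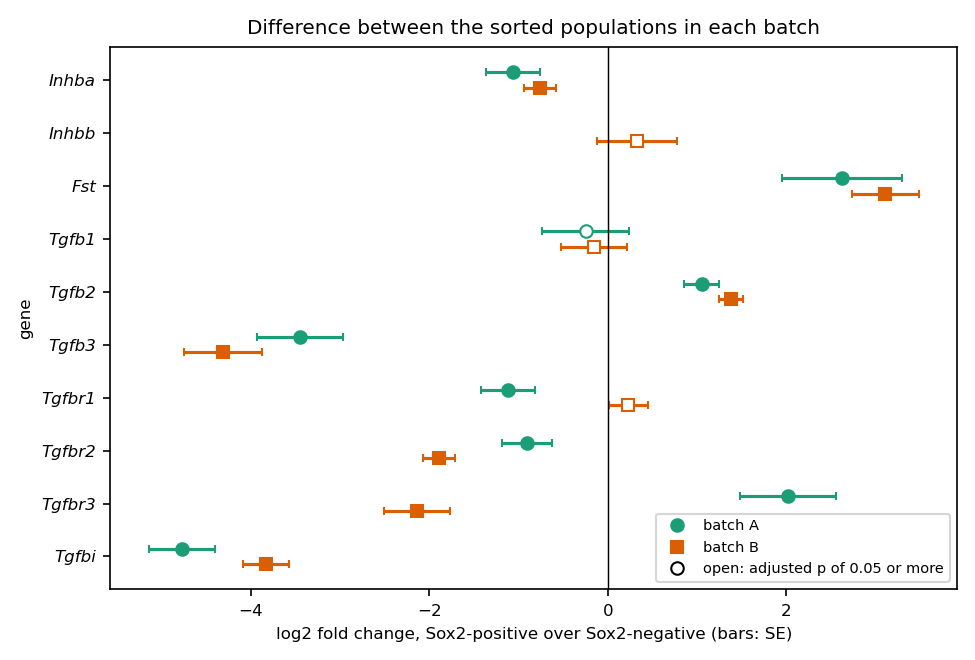
Log2 difference, Sox2-positive minus Sox2-negative, with bars of 1 SE, for each tested gene of the set in batch A (circles) and batch B (squares), open where not called (edgeR). Fst and Tgfb2 lie above 0 and Tgfbi, Tgfb3, Tgfbr2 and Inhba below 0 in both batches, and Tgfbr3 lies at 2.02 in batch A and -2.14 in batch B.

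The signalling receptors Tgfbr1 and Tgfbr2 were both lower in Sox2-positive cells of batch A, and in batch B Tgfbr2 alone of this pair was called. Tgfbr2, on chromosome 9 at 116084293 to 116175360, minus strand, ran from 60.9 to 169 CPM with a median of 85.9 in batch A Sox2-negative libraries and from 31.4 to 75.2 CPM with a median of 49.3 in Sox2-positive libraries. In batch B the Sox2-negative libraries were at 81.2, 70.4, 103 and 68.8 CPM, and the Sox2-positive libraries at 15.8 to 25.5 CPM with a median of 21.2. The groups were far apart in batch B, whereas in batch A 5 of 6 Sox2-positive libraries were below all Sox2-negative libraries. The log2 differences were -0.91 (SE 0.28, adjusted p 0.0156, edgeR) and -1.89 (SE 0.18, adjusted p 3.38e-07) in batches A and B. The batch A call was lost without replicate 1 of batch A Sox2-negative (-0.66, adjusted p 0.0505). The difference between the batches' values was -1.05 (SE 0.35) and was not called (interaction, adjusted p 0.0725, edgeR), but leaving out the same replicate 1 made it -1.27 with an adjusted p of 0.0146.

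Tgfbr1, on chromosome 4 at 47353222 to 47414931, plus strand, covered 26.1 to 93.5 CPM with a median of 72 in batch A Sox2-negative libraries and 22.7 to 40 CPM with a median of 28.6 in Sox2-positive libraries. Sox2-negative libraries of batch B had 50.8, 57.6, 30.5 and 29.4 CPM, and the Sox2-positive libraries 36.2 to 61.5 CPM with a median of 46.1. Libraries of the populations overlapped in both batches. The log2 difference was -1.12 (SE 0.30, adjusted p 0.00614, edgeR) in batch A and 0.23 (SE 0.22, adjusted p 0.394) in batch B. The interaction, batch B difference minus batch A difference, was 1.28 (SE 0.39, adjusted p 0.0439). That call was lost on leaving out any of 16 of the 23 libraries, with adjusted p up to 0.104. It held only without replicate 1 or 5 of batch A Sox2-negative, replicate 2 of batch A Sox2-positive, replicate 2 of batch B Sox2-negative, or replicate 5, 6 or 7 of batch B Sox2-positive.

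Tgfbr3 was the member whose population difference turned between the batches. It lies on chromosome 5 at 107106570 to 107289629, minus strand. Batch A Sox2-negative libraries covered 0.427 to 25.8 CPM with a median of 13.2, and Sox2-positive libraries 42.7 to 68.6 CPM with a median of 51.1. In batch B the Sox2-negative libraries were at 27.7, 30, 26.3 and 22.9 CPM, and the Sox2-positive libraries at 1.7 to 8.71 CPM with a median of 6.23. Neither batch had overlapping populations, and their order was reversed. The log2 difference was 2.02 (SE 0.54, adjusted p 0.00634, edgeR) in batch A and -2.14 (SE 0.37, adjusted p 0.000129) in batch B. The interaction was -4.22 (SE 0.69, adjusted p 0.000214), against 7.04% of 17190 genes called for the interaction. Limma-voom with sample quality weights gave larger values, 2.64 (adjusted p 0.0021) in batch A and -5.11 (adjusted p 0.00002) for the interaction.

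Within the Sox2-positive cells, Tgfbr3 was lower in batch B than in batch A by a log2 difference of -3.20 (SE 0.48, adjusted p 2.93e-05, edgeR), with no overlap of libraries, while in Sox2-negative cells the value was 1.02 (SE 0.51, adjusted p 0.214). Summed markers of some other cell types moved with it, namely glial and neural crest, ameloblast and mesenchymal markers. For the mesenchymal list this holds for the sum and not for the list as a whole. Of its 10 markers, 4 were called lower and 0 higher, and the median log2 difference was -0.34 (edgeR). Its marker Col1a1 fell by -3.57 (SE 0.17), from a mean of 424 to 36.1 CPM. Its marker Dcn went the other way, by 0.67 (SE 0.30), and was not called. Epithelial sums and pericyte and smooth muscle sums were instead higher in batch B Sox2-positive libraries. The 8 glial and neural crest markers summed to 1167 to 1388 CPM in batch A Sox2-positive libraries and to 73.9 to 105 CPM in batch B Sox2-positive libraries, and 8 of 8 were called lower in batch B. In the Sox2-negative groups they summed to 51.9 to 109 and 64.5 to 106 CPM, with Foxd3 at 0 in both groups and Sox10 at 0 in batch B. The batch B populations thus had like sums, although 4 of 7 tested markers were called higher and 1 lower in its Sox2-positive cells. The 7 ameloblast markers, genes of enamel-forming cells, summed to 293 to 349 CPM in batch A Sox2-positive and 9.8 to 17.3 CPM in batch B Sox2-positive libraries, with 4 of 5 tested called lower. In the Sox2-negative groups this sum was 747 to 940 and 596 to 712 CPM. Klk4 and Amtn were at 0 in batch A Sox2-positive libraries, and Enam and Amtn in those of batch B. The part of these cell types in the Tgfbr3 result was not tested.

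**Figure D4:**
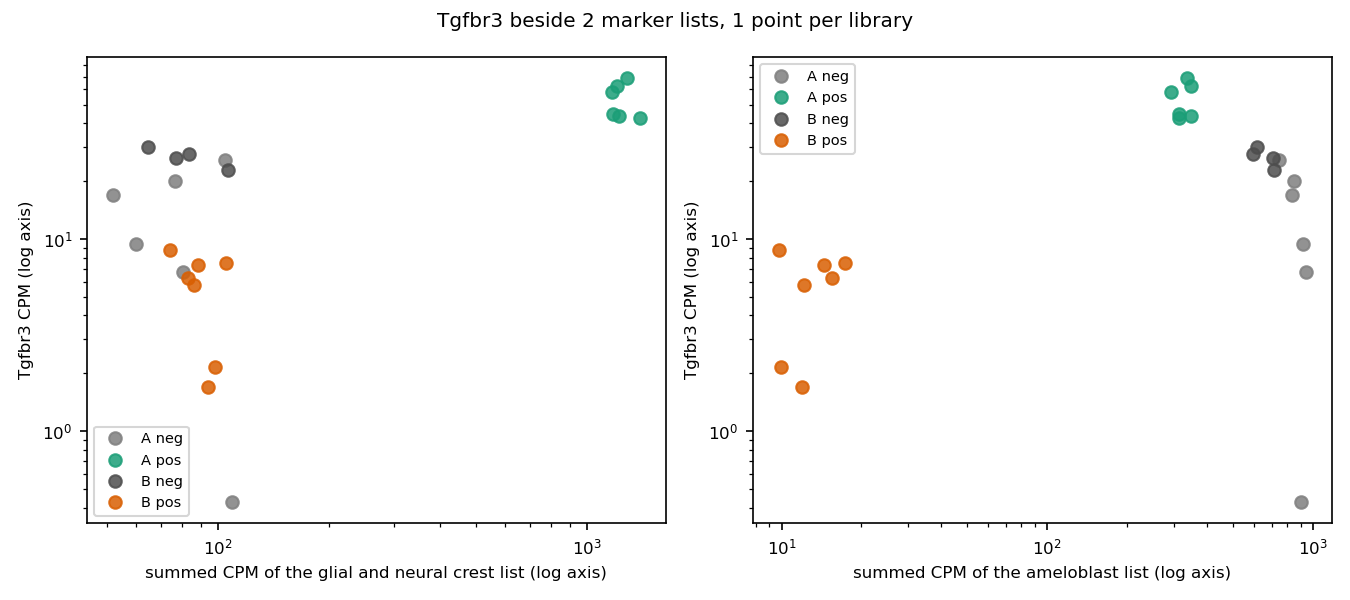
Tgfbr3 level in CPM against the summed CPM of the glial and neural crest markers and of the ameloblast markers, 1 point per library on log axes, colored by group (A and B for the batch, neg and pos for the population). The 6 batch A Sox2-positive libraries hold the highest Tgfbr3 levels, 42.7 to 68.6 CPM, and the highest glial sums, and the batch B Sox2-positive libraries have Tgfbr3 at 1.7 to 8.71 CPM. The highest ameloblast sums are instead in the Sox2-negative groups, at 747 to 940 CPM in batch A and 596 to 712 CPM in batch B. In batch A Sox2-positive libraries that sum is 293 to 349 CPM.

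Exons of Tgfbr3 overlap those of Gm43422, an annotated gene on the same strand, so reads could be split between them. Gm43422 reached 6.62 CPM in replicate 2 of batch A Sox2-negative, the library in which Tgfbr3 was at 0.427 CPM, and at most 0.474 CPM in any library of the other groups. Summed over both genes, batch A Sox2-negative libraries covered 6.72 to 25.8 CPM, still below the 42.7 to 69 CPM of the Sox2-positive libraries. Fst, Tgfb2 and Tgfb3 have exons that overlap genes on the other strand. Gm29491, opposite Tgfb2, reached 2.42 CPM, Gm48008, opposite Tgfb3, reached 0.262 CPM, and Gm47040, opposite Fst, reached 0.159 CPM. These levels are small beside those of the member genes in the groups where the members were high.

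Among the receptor genes, shares per kilobase moved with these changes. Tgfbr3 made up 8.35 ± 4.87% (SD, n = 6) of the summed receptor level in batch A Sox2-negative libraries and 43.6 ± 5.98% (n = 6) in Sox2-positive libraries. In batch B it made up 20.3 ± 1.13% (n = 4) and 7.86 ± 3.7% (n = 7). Tgfbr1 averaged 69.6 ± 6.08% in batch B Sox2-positive libraries, above its 44.6%, 25.5% and 33.3% in batch A Sox2-negative, batch A Sox2-positive and batch B Sox2-negative libraries. Tgfbr2 supplied 47% and 46.4% in the Sox2-negative groups of batches A and B, and 30.9% and 22.5% in the Sox2-positive groups.

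Tgfbi, named for its induction by TGF-beta and encoding a matrix protein that binds collagens and integrins, had the largest population difference of the 10 genes in batch A. It lies on chromosome 13 at 56609523 to 56639562, plus strand. Sox2-negative libraries of batch A ran from 176 to 239 CPM with a median of 197, and Sox2-positive libraries from 1.26 to 15.3 CPM with a median of 7.22. For batch B, the Sox2-negative libraries were at 184, 230, 215 and 253 CPM, and the Sox2-positive libraries at 8.28 to 28.1 CPM with a median of 14.4. The lowest Sox2-negative library was far above the highest Sox2-positive library in both batches. The log2 differences were -4.77 (SE 0.37, adjusted p 4.7e-08, edgeR) and -3.83 (SE 0.26, adjusted p 3.53e-09) in batches A and B, which are 27.3-fold and 14.3-fold. Mesenchymal markers, given above, were lower on the same side, and their part in the Tgfbi result was not tested.

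Per kilobase, Tgfbi stood first among the 10 genes in both Sox2-negative groups, at 75 ± 8.83 (SD, n = 6) and 81.2 ± 10.6 (n = 4) CPM per kilobase, and its range was clear of the next gene. In batch A Sox2-negative libraries Tgfb3, Tgfb2, Tgfbr2, Tgfbr1 and Inhba followed at 15.5 to 10.9 CPM per kilobase, and the ranges of neighbours overlapped. In batch B Sox2-negative libraries Inhba, Tgfb2 and Tgfb3 followed at 18, 17.4 and 17.2 CPM per kilobase, again with overlapping ranges. Tgfb2 led both Sox2-positive groups at 30.8 ± 5.6 (n = 6) and 43.1 ± 5.48 (n = 7), ahead of Fst at 15.9 ± 4.5 and 29.5 ± 6.54, and in each batch these ranges just met. Below Fst, batch A Sox2-positive libraries had Tgfbr3, Tgfbr2, Inhba and Tgfbr1 at 8.75, 6.23, 5.22 and 5.08 CPM per kilobase with overlapping neighbours. In batch B Sox2-positive libraries Inhba came next at 10.1 and its range was clear of that of Fst. At the low end stood Inhbb in 3 groups, at 1.21, 0.231 and 2.78 CPM per kilobase, and Tgfb3 in batch B Sox2-positive libraries at 0.796.

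The comparison of batches within a population asks how far these levels repeat between days and mice. In Sox2-negative cells 0 of 10 genes were called between the batches by edgeR, DESeq2 or limma-voom, against 11.2% of 17190 genes by edgeR. At an unadjusted p under 0.05 there was 1, Inhba, with a log2 difference of 0.72 (SE 0.27, adjusted p 0.0815, edgeR). Leaving out replicate 1 of batch A Sox2-negative brought Inhba to an adjusted p of 0.0492. Uncalled values included 1.20 for Inhbb (SE 0.76, adjusted p 0.341), 1.02 for Tgfbr3 (SE 0.51, adjusted p 0.214) and -0.60 for Tgfbr1 (SE 0.29, adjusted p 0.198). For Inhbb and Tgfbr3 the SE would leave a sizeable difference unresolved, so the absence of calls does not show that levels repeated. The marker mixture of the Sox2-negative groups also differed, with erythroid markers at 983 to 1175 CPM in batch A and 53603 to 62032 CPM in batch B.

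In Sox2-positive cells 5 of 10 genes were called between the batches, against 10.4% of genes. Inhba and Inhbb were higher in batch B, by log2 differences of 0.95 (SE 0.24, adjusted p 0.00841, edgeR) and 3.82 (SE 0.77, adjusted p 0.00121). All 7 batch B libraries had more Inhbb than any batch A library, with 11.4 CPM the lowest in batch B and 1.81 CPM the highest in batch A. Inhbb made up 25.1 ± 3.4% (SD, n = 7) of the Inhba and Inhbb level per kilobase in batch B and 5.09 ± 3.34% (n = 6) in batch A. Tgfbr2 was lower in batch B by -1.28 (SE 0.24, adjusted p 0.00042), with no overlap, as was Tgfbr3, given above. Libraries of the batches did not overlap for 3 of the 10 genes, Inhbb, Tgfbr2 and Tgfbr3, against 8.56% of 17190 genes. Tgfbi was higher by 1.00 (SE 0.32, adjusted p 0.0439), a call that was lost on leaving out any of 9 of the 13 libraries, with adjusted p up to 0.112, and that held without replicate 1 of batch A or replicate 1, 2 or 3 of batch B. Tgfb2 was just short of the threshold at 0.48 (SE 0.16, adjusted p 0.0505), and was called without replicate 6 of batch A or replicate 1 or 2 of batch B (adjusted p 0.0341 to 0.0413). Fst, with 0.90 (SE 0.47, adjusted p 0.274), Tgfbr1, with 0.68 (SE 0.25, adjusted p 0.0946), Tgfb3 and Tgfb1 were not called by edgeR. Limma-voom with sample quality weights called Fst (adjusted p 0.00315), Tgfbr1 (0.0301) and Tgfb2 (0.00131). These comparisons share libraries with the population differences above, and batch cannot be told apart from mice and day.

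Apart from Tgfbr1 and Tgfbr3, the interaction was not called for the other 8 genes, with log2 values of 2.62 for Inhbb (SE 1.07, adjusted p 0.156, edgeR), 0.89 for Tgfbi (SE 0.46, adjusted p 0.285) and -0.94 for Tgfb3 (SE 0.68, adjusted p 0.488). Values for Fst, Tgfb2, Inhba and Tgfb1 were 0.41, 0.27, 0.24 and 0.04, with SE of 0.74, 0.24, 0.36 and 0.59. For Inhbb, Fst, Tgfb3 and Tgfb1 the SE would leave a sizeable difference between batches unresolved.

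Beyond the 10 genes, 48 genes of the same pathways were listed as ligands, receptors, extracellular binders and activators, Smads with their feedback regulators, and reported transcriptional targets. Of 38 tested in batch A, 6 were higher and 16 lower on the Sox2-positive side, and the median log2 difference was -0.61. In batch B 9 of 40 were higher and 20 lower, with a median of -0.38. The shares over all tested genes are those given above. Col1a1 and Dcn of this list are also mesenchymal markers, and the mesenchymal marker sums were lower on the same side as most called genes.

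Of the 8 reported target genes, 7 were tested in each batch, and in each 6 were lower and 1 was higher. Col1a1 and Fn1, genes of collagen I and fibronectin, were lower by -3.87 and -4.72 in batch A and by -7.31 and -5.10 in batch B on the log2 scale. Postn, which encodes the matrix protein periostin, went from 480 ± 73 to 180 ± 26.4 CPM (SD, n = 6 each) in batch A and from 467 ± 73.8 (n = 4) to 15.9 ± 3.07 CPM (n = 7) in batch B, Sox2-negative to Sox2-positive. The cell cycle inhibitor genes Cdkn1a and Cdkn2b and the matricellular gene Ccn2 were lower in both batches. For Cdkn2b the batch A call was lost without replicate 3 or 5 of batch A Sox2-positive (adjusted p 0.0503 and 0.0516, edgeR) and the batch B call without replicate 2 or 3 of batch B Sox2-negative (0.0696 and 0.169), and with limma-voom (0.0625), no filter beyond 1 count (0.0684) or the model of the 4 group means (0.126). Tagln, a gene of an actin-binding protein of smooth muscle, was the target called higher, by 0.61 (SE 0.20, adjusted p 0.025) in batch A and 2.00 (SE 0.15, adjusted p 1.34e-08) in batch B. Its batch A call was lost without replicate 2 of batch A Sox2-positive (0.57, adjusted p 0.0532). Pericyte and smooth muscle markers summed to less on the Sox2-positive side, the opposite order to Tagln: 61.3 to 97 against 506 to 820 CPM in batch A, and 269 to 307 against 384 to 427 CPM in batch B. Of the 5 markers tested, 0 were called higher and 3 lower in batch A. In batch B 2 were called higher and 2 lower, so single markers went both ways there. Between the Sox2-positive groups the marker sum was higher in batch B, as was Tagln. The part of these cells in the Tagln values was not tested.

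Among 14 extracellular binders and activators, 3 were higher and 6 lower of 12 tested in batch A, and 3 higher and 8 lower of 14 in batch B. Itgb8, the integrin subunit gene whose product with the Itgav product activates latent TGF-beta, rose from 1.03 ± 0.804 to 19.9 ± 9.57 CPM (SD, n = 6 each) in batch A and from 5.07 ± 2.58 (n = 4) to 25.8 ± 4.13 CPM (n = 7) in batch B. Its partner gene Itgav was lower in Sox2-positive cells, by -1.27 (SE 0.18) and -2.22 (SE 0.22). Fstl3, a follistatin-like activin antagonist gene, was higher, by 2.98 (SE 0.95, adjusted p 0.0186, edgeR) in batch A and 0.96 (SE 0.39, adjusted p 0.0482) in batch B. The batch B call for Fstl3 was lost without replicate 2 or 3 of batch B Sox2-negative or replicate 2, 3, 4 or 5 of batch B Sox2-positive, with adjusted p of 0.066 to 0.114. It was also lost with limma-voom (0.0814), RLE size factors (0.0629), the model of the 4 group means (0.358) and without the batch B libraries numbered 1 and 2 (0.0937). In batch A the Fstl3 value became 3.77 without replicate 3 of batch A Sox2-negative and 5.17 with limma-voom. Thbs1, Ltbp1, Nrros, Dcn and Fstl1 were lower in both batches, with Fstl1 at -0.40 (SE 0.11, adjusted p 0.0048) in batch B. Thbs1 encodes thrombospondin, an activator of latent TGF-beta, and Ltbp1 and Nrros encode proteins that hold the latent complex. Nrros is a gene of myeloid cells, and leukocyte markers summed to 3315 to 3677 CPM and 667 to 772 CPM in the Sox2-negative groups, against at most 14.8 CPM in any Sox2-positive library. The part of leukocytes in the Nrros values was not tested.

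In the class of receptors and coreceptors, Eng, an endothelial coreceptor gene for TGF-beta, was lower by -2.74 (SE 0.22) and -2.60 (SE 0.31) in the 2 batches. Endothelial markers were lower on the same side, at 889 to 1110 against 0.637 to 10.9 CPM in batch A and 216 to 274 against 3.67 to 10.7 CPM in batch B, and their part in the Eng values was not tested. Of the 11 Smads and feedback genes, all were tested, with 2 higher and 3 lower in batch A, and 4 higher and 3 lower in batch B. Tgif1, a transcriptional repressor of Smad signalling, rose from 38.5 ± 12.8 to 113 ± 20.5 CPM (SD, n = 6 each) in batch A and from 28.1 ± 2.53 (n = 4) to 167 ± 13 CPM (n = 7) in batch B. Smurf2, a ubiquitin ligase that targets the receptors, was lower in both batches. Smad6, an inhibitory Smad, was lower by -1.21 (SE 0.43, adjusted p 0.0335, edgeR) and -2.35 (SE 0.20, adjusted p 8.41e-08). The batch A call for Smad6 was lost without replicate 2 or 3 of batch A Sox2-negative or replicate 2, 3, 4 or 5 of batch A Sox2-positive, with adjusted p of 0.0558 to 0.0877, and with no filter beyond 1 count (0.0532). Other ligand genes gave 0 of 3 called in batch A and 1 higher and 1 lower of 3 in batch B.

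**Figure D5:**
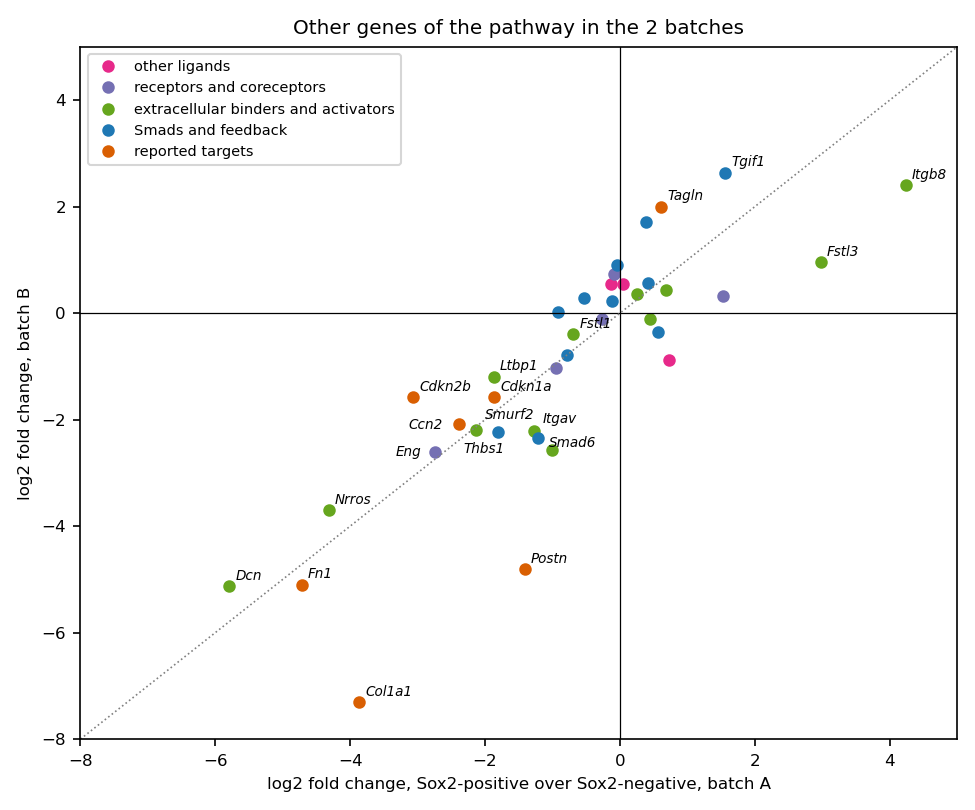
Log2 difference, Sox2-positive over Sox2-negative, in batch A (horizontal axis) and batch B (vertical axis) for the listed pathway genes tested in both, colored by class, with the dotted line marking equal values. Labelled genes were called in both batches with a mean of at least 10 CPM in a group, and the 4 higher (Fstl3, Itgb8, Tgif1, Tagln) lie to the upper right and the 15 lower to the lower left.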

How the data were processed

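RNA was measured by Smart-seq2 in 23 libraries of 4 groups, which were taken from the labels. The values are estimated counts (expected counts) per gene as deposited, with no scaling to a common depth, and they were rounded to whole numbers for the count tests. FastQC, Trimmomatic, Salmon and the mm10 build are named per the submitters' processing notes. Their versions, the annotation and the strand setting are not given in the sources used here. All 23 value columns were used. Gene symbols, positions and lengths came from the GENCODE annotation of GRCm38: 54094 identifiers matched without their version (99.5%).

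Tests used edgeR 4.0.16 in R 4.3.3 (TMM, filterByExpr with a minimum count of 10, quasi-likelihood F test, two-sided, Benjamini-Hochberg over all genes tested, called at 0.05). Populations were compared within each batch. A model of the 4 group means over all libraries gave the interaction and the comparisons between batches. It shares 1 estimate of spread per gene, although the groups differed in spread. Their common biological coefficient of variation (edgeR) ran from 0.287 in batch B Sox2-positive to 0.73 in batch A Sox2-negative libraries. The standard error was the absolute log2 fold change divided by the square root of F. The fits were also run on simulated counts in which all groups shared the spread of a gene. That run could not test the fits where groups differ in spread. A gene below the filter was compared by an exact permutation test (scipy 1.17.1). Pathway genes were named where called in both batches with a mean of at least 10 CPM in a group. For each member with a mean of at least 10 CPM in a group, the 3 genes with the highest Pearson r of log2 CPM (prior count 2) were listed. The members and gene lists were chosen with earlier results of these data known. Alternatives were DESeq2 1.42.0, limma-voom (limma 3.58.1) with sample quality weights, other scalings and filters, a replicate block, the 4-group model, and leaving out libraries. ATAC-seq was not analysed here.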

Additional observations from a re-analysis of the deposited data

Results flagged for a closer look

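Among the 10 genes and the 19 named pathway genes, 7 had population differences that differed between the batches by the interaction test of edgeR, with log2 values as batch B minus batch A. Over all 17190 genes tested, 7.04% were called for the interaction. The 19 pathway genes were named because they were called in both batches, so the count of 7 describes a selected list and not the pathway. The members gave 1.28 for Tgfbr1 (adjusted p 0.0439) and -4.22 for Tgfbr3 (adjusted p 0.000214). Among the pathway genes, the collagen gene Col1a1 gave -3.51 (adjusted p 1.08e-10) and the periostin gene Postn -3.46 (adjusted p 3.43e-12). The integrin gene Itgav gave -1.02 (adjusted p 0.0376), a call lost in 12 of 23 fits that each left out 1 library, with the replicate block (0.213) and without the batch B libraries numbered 1 and 2 (0.174). The repressor gene Tgif1 gave 1.02 (adjusted p 0.0122), a call lost with limma-voom (0.0665), the replicate block (0.0705) and without the batch B libraries numbered 1 and 2 (0.0806). The last of the 7 was Tagln with 1.33 (adjusted p 0.000389).

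Single libraries stood far from the rest of their group, by Dixon's ratio of gap to range, in 4 of 116 groups of 4 to 7 libraries tested over 29 genes, where chance gives about 1 in 20. None of the 4 was a member of the set. Eng was at 32.5 CPM in replicate 4 of batch A Sox2-positive, with the next library at 22.8 CPM (ratio 0.648). Dcn was at 212 CPM in replicate 3 of batch B Sox2-negative, with the next at 288 CPM (0.915). Cdkn1a was at 485 CPM in replicate 4 of batch B Sox2-negative, next to 369 CPM (0.88), and at 150 CPM in replicate 7 of batch B Sox2-positive, next to 128 CPM (0.6).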

How the results depend on the processing

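The 7 members called in both batches kept direction and call in both under all alternatives, except that Tgfbr2 in batch A was lost with the replicate block (adjusted p 0.0534) and without 1 library. Same-numbered libraries did not deviate together (r from -0.0212 to 0.0444 over 17190 genes). These values give no sign that the numbers pair samples. They cannot exclude pairing, because the spread between libraries may be technical. The highest r values, 0.04 and 0.0444, were those of batch B numbers 1 and 2. There, Sox2-negative library 1 was closest to Sox2-positive library 2, and Sox2-negative library 2 to Sox2-positive library 1. Sox2-positive replicates 1 and 2 of batch B had epithelial sums of 5829 and 5655 CPM, against 7851 to 8382 CPM in replicates 3 to 7. Their Tgfb2 was at 183 and 181 CPM, against 215 to 249 CPM. The replicate block lost the batch B calls of Fstl1 (0.0658), Fstl3 (0.0664) and Cdkn2b (0.166) and the batch A call of Smad6 (0.0727), and gave 5829 genes called in batch A, 6668 in batch B and 557 for the interaction, against 6209, 8623 and 1210. Leaving out the batch B libraries numbered 1 and 2 gave 481 for the interaction, 754 between batches in Sox2-negative cells (against 1924) and 1159 in Sox2-positive cells (against 1785). DESeq2 gave 2887 in Sox2-negative cells and limma-voom 3313 in Sox2-positive cells. Members called for the interaction were 2, and 1 with limma-voom, the block or without those libraries (1 to 3 on leaving out single libraries). Pathway genes called for the interaction numbered 9, against 3 with the block and 4 without those libraries, which also left 5 of 10 in Sox2-negative cells. The Tgfbr1 interaction was lost with limma-voom (adjusted p 0.0822), the block (0.0589) and without those libraries (0.0758), and the Tgfbi difference between Sox2-positive batches with limma-voom (0.0605) and total-count scaling (0.071). That of Tgfb2 was called by DESeq2 (0.0404), limma-voom (0.00131) and a mean-count filter (0.042), and those of Fst (0.00315) and Tgfbr1 (0.0301) by limma-voom. Values near 0 changed sign: Inhbb in batch B, -0.02 without those libraries; the interaction of Fst, -0.29 with limma-voom and -0.03 with the block; that of Tgfb1, -0.27, and of Eng, -0.18, with the block; Tgfbi between Sox2-negative batches, -0.03 with total counts. Leaving out single libraries gave interactions of -0.09 to 0.98 for Fst, -0.14 to 0.20 for Tgfb1, -0.12 to 0.22 for Eng, -0.35 to 0.04 for Thbs1 and -0.01 to 0.49 for Ccn2. Between Sox2-negative batches it gave -0.07 to 0.98 for Fst, -0.03 to 0.30 for Tgfb3, and 0 to 1 members called. Total-count scaling moved the median of all genes there from 0.00 to -0.15. The causes were not tested. The lowest libraries held 0 to 2 counts of Inhbb in batch A, Tgfb3 in batch B Sox2-positive cells, and Fst and Tgfbr3 in batch A Sox2-negative cells, where counting error is large.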

Other observations

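For each member with a mean of at least 10 CPM in a group, the genes whose levels followed it most closely over the 23 libraries were listed by Pearson r of log2 CPM, among 11751 genes. These values are descriptions: the libraries share population, batch and depth, so any gene that separates the groups alike scores high. Tgfbi was followed by the mechanosensitive channel gene Piezo2 (r = 0.965), the Hedgehog receptor gene Ptch1 (0.963) and the growth factor gene Igf2 (0.962). Tgfb2 was followed by the glucose transporter gene Slc2a1 (0.962), the transcription factor gene Sox9 (0.94) and Ctf1 (0.939). For Tgfb3 these were Tle2 (0.938), Olfml2b (0.932) and Sfrp4 (0.925), and for Fst they were the tuftelin gene Tuft1 (0.932), Stard10 (0.925) and Xrcc5 (0.925).

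Tgfbr2 was most like Ambn, the gene of the enamel matrix protein ameloblastin (0.925), Rhob (0.92) and Col5a3 (0.919). Inhba was most like Maob (0.909), the AP-1 family gene Fosl2 (0.874) and C1qtnf6 (0.847). Inhbb had Foxo1 (0.86), Igfbp3 (0.824) and Dgka (0.823). Values were lower for Tgfbr3, with the ameloblast transcription factor gene Sp6 (0.803), Lrrn3 (0.796) and Lrrc58 (0.791), and for Tgfbr1, with Glrx (0.788), Zbtb4 (0.757) and Ndufs4 (0.746). Among pairs of members, Tgfb3 and Tgfbi had r = 0.86, Fst and Tgfb2 0.711, and Tgfb2 and Tgfb3 -0.83.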
